A study of Mus musculus with 12 samples.

Results

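The collagen genes of mouse were examined in 2 mammary carcinoma cell lines, each grown in 2 kinds of culture. Every row of the deposited expression table that was annotated as protein coding and whose symbol had the form Col, a number, the letter a and a number was taken, which gave 44 of the 52550 genes in the table. They were sorted by chain type into 11 fibrillar collagens, 6 basement membrane collagens, which are the chains of type IV, and 27 other collagens. RNA was sequenced from D2A1 and D2.OR, lines that arose in separate tumors of related origin in mice. D2A1 keeps growing in 3D culture and D2.OR stops dividing there. In 2D the cells grew on plastic, and in 3D they were seeded on top of growth-factor-reduced Matrigel, a basement membrane extract that itself contains type IV collagen protein, and were taken out with an ice-cold recovery solution after a week. The 3D medium held horse serum, hydrocortisone, cholera toxin and insulin. Whether the 2D cultures used for RNA had the same medium is not clear, and medium and matrix were not tested apart. The 4 groups, D2A1 2D, D2A1 3D, D2.OR 2D and D2.OR 3D, had 3 libraries each, 1 per batch, and the labels name no engineered allele and no drug treatment for any of them. Each line is a single line from 1 tumor, so what is called a difference between lines cannot be told apart from a difference between those tumors, and the RNA of a library came from pooled wells.

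Collagens are proteins of the extracellular matrix in which 3 chains wind into a triple helix. The fibrillar types are exported as procollagens, trimmed outside the cell and packed into the fibers of connective tissue, with types I and III as the bulk of a fibril and types V and XI inside it. Type IV chains form a network in the basement membrane under epithelia, type VI forms beaded filaments close to cells, and further families link to fibrils, cross the plasma membrane or anchor the basement membrane. In a mammary tumor most of the fibrillar collagen is usually made by fibroblasts, and carcinoma cells and vessels contribute type IV chains.

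Type IV collagen genes lie in pairs that start close together on opposite strands. The sequences around the RefSeq start sites of 2 such pairs are shown because both genes of one pair differed between the lines in the same direction and those of the other did not. Each window holds 300 bases on the strand of its gene, 250 before the start site and 50 from it on, in build GRCm38.p6. Capitals mark matches, on either strand, to the CCAAT box (CCAAT), the GC box (GGGCGG) and the TATA box (TATAAA). The Col4a1 window lies at chr8:11312777-11313076, minus strand, and the Col4a2 window at chr8:11312555-11312854, plus strand. They lie on opposite strands and share 78 bases.
Col4a1: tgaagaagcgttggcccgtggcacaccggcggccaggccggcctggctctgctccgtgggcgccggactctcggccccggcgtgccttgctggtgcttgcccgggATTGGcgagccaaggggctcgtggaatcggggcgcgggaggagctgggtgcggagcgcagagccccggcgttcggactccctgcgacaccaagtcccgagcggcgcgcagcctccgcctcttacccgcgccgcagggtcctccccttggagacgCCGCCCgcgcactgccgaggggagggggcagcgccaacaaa
Col4a2: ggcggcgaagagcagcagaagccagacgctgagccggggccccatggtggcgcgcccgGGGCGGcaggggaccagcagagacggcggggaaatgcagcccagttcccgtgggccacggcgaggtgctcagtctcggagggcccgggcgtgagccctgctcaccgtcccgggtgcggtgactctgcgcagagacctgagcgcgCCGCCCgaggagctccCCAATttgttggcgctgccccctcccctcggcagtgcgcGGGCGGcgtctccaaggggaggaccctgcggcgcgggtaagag
The Col4a5 window lies at chrX:141475169-141475468, plus strand, and the Col4a6 window at chrX:141474027-141474326, minus strand.
Col4a5: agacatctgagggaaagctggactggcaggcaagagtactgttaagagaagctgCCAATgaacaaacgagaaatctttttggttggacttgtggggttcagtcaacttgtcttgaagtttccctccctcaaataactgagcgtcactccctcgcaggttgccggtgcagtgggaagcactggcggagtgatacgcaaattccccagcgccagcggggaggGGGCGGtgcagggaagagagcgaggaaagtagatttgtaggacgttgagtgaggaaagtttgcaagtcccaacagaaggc
Col4a6: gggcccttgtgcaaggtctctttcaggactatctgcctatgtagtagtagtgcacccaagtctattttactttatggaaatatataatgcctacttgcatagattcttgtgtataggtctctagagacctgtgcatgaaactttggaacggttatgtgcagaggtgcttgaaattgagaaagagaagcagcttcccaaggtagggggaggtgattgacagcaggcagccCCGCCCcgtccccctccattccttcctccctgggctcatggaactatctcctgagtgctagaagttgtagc
The window of Col3a1, which reached the highest level of the fibrillar collagens, in D2.OR, lies at chr1:45311288-45311587, plus strand. It is shown beside them because it holds a match to the TATA box, with its first base at -117 from the start site, and none to the GC box.
Col3a1: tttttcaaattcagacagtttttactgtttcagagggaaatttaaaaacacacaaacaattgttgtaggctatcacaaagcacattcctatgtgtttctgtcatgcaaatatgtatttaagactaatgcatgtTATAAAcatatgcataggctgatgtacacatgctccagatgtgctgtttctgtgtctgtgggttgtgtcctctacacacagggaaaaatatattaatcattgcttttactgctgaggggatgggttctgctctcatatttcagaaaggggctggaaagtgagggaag
The share of G and C bases was 74% in the Col4a1 window, 73.7% in that of Col4a2, 52.7% in that of Col4a5, 48.3% in that of Col4a6 and 37.7% in that of Col3a1. The table of RefSeq start sites held windows for 35 of the 44 collagen genes, 38 windows in all. A GC box was present in 23 of these 38 windows (60.5%) and in 35.7% of all 32851 windows of the table. The CCAAT box was found in 34.2% of the collagen windows and in 37.4% of all windows, and the TATA box in 13.2% and 13.6%. A match is a run of letters only, and no binding was measured.

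Libraries held 47589611 to 73325069 expected counts, with a median of 61747126. Both lines are labelled as breast cancer cells, and the epithelial markers differed between them. Krt8, a keratin of simple epithelia, averaged 859 ± 161 TPM, a level scaled for transcript length and library size, in D2.OR 2D and 1.27 ± 0.647 in D2A1 2D (SD, n = 3). Cdh1, which encodes E-cadherin, averaged 76.2 ± 92.8 TPM in D2.OR 2D and 0.113 ± 0.145 in D2A1 2D, and Epcam averaged 3.69 ± 1.67 and 0.0333 ± 0.0231, so that Cdh1 and Epcam were near 0 in D2A1. The mean of Cdh1 in D2.OR 2D rests on batch 1 and was 22.6 TPM without it, and Krt18 was at 263 ± 50.8 TPM in D2A1 2D. Of the 8 epithelial markers tested, 6 were higher and 0 lower in D2.OR in 2D, and 4 were higher and 2 lower in 3D. Of all genes tested 49.8% passed in 2D, with 25.4% higher, and 53.8% passed in 3D, with 27.7% higher. The lower ones in 3D were Cldn3 (-1.98 ± 0.47, adjusted p = 0.00661) and Elf3 (-1.92 ± 0.30, adjusted p = 6.33e-04), named after their values were seen (log2 fold change of D2.OR over D2A1, SE, edgeR). The 10 epithelial markers summed to 118 to 314 TPM in the D2A1 libraries and 429.6 to 1727 TPM in the D2.OR libraries. The 10 fibroblast markers summed to 66.1 to 206.9 TPM in D2A1 2D and 169.8 to 323 TPM in D2.OR 2D, where the lines overlapped, and to 28.7 to 44.9 TPM in D2A1 3D and 134 to 339 TPM in D2.OR 3D, where they did not. Of 8 tested, 3 were higher and 1 lower in D2.OR in 2D, and 4 higher and 1 lower in 3D, against the same shares of all genes. The smallest p values in both cultures were those of Fap, at 0.213 ± 0.118 TPM in D2A1 2D and 25 ± 9.47 in D2.OR 2D (log2 fold change 7.48 ± 0.60 (SE), adjusted p = 1.72e-05), and Pdgfra, at 22.6 ± 5.86 and 109 ± 45.9 TPM (log2 fold change 2.55 ± 0.35 (SE), adjusted p = 3.52e-04). The lower one in 2D was Pi16, at 3.74 ± 2.76 TPM in D2A1 2D and 0.12 ± 0.166 in D2.OR 2D. The sums included Pdgfra, Pdgfrb and Postn above a mean of 1 TPM in every group, and Thy1, Dpt, Cd34 and Lum below that in every group. The 6 endothelial markers summed to at most 0.63 TPM, and the 7 leukocyte markers to 2.34 to 32.2 TPM, of which Cd68 was the only gene with a group mean of 1 TPM. The part of other cell types in the collagen levels was not tested. The batch 1 libraries stood apart, in that 15.4% of the 16823 genes tested had their highest or their lowest TPM of the group in batch 1 in all 4 groups, against 3.19% for batch 2 and 3.59% for batch 3. Of the 38 tested collagens the same was seen for 4 in batch 1 (10.5%), which were Col15a1, Col4a5, Col4a6 and Col8a2, for 0 in batch 2 and for 2 in batch 3 (5.26%), which were Col1a1 and Col7a1. In CPM, counts scaled to library size, these counts were 7, 0 and 4, against 17%, 3.32% and 4.33% of all genes tested.

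Collagen transcripts were far more abundant in D2.OR than in D2A1, and the make-up of the collagen pool differed. The 44 genes summed to 806 ± 51.2 TPM in D2A1 2D, 523 ± 159.6 in D2A1 3D, 6152 ± 1884 in D2.OR 2D and 5757 ± 772 in D2.OR 3D (SD, n = 3). The 6 D2.OR libraries ran from 4191 to 7947 TPM and the 6 D2A1 libraries from 414 to 850.4 TPM, so that the lines did not overlap. Levels are shares of the transcripts of a whole culture, so fewer cells that make a transcript cannot be told apart from less of it in each cell. Fibrillar collagens summed to 310.4 ± 36.7 TPM in D2A1 2D and 2301 ± 781 in D2.OR 2D, and the other collagens to 258 ± 39.1 and 3689.7 ± 1232. In 3D the fibrillar sums were 197 ± 47.2 TPM in D2A1 and 1520 ± 681 in D2.OR, and the sums of the other collagens were 163 ± 18.2 and 4097 ± 471. For both classes the D2.OR and D2A1 libraries did not overlap in either culture. The basement membrane collagens did not follow this pattern. Their sums ranged from 102 to 318 TPM over the 6 D2A1 libraries and from 56.7 to 320.3 TPM over the 6 D2.OR libraries, which overlapped. The overlap rested on batch 1, at 318 TPM in D2A1 and 320.3 in D2.OR in 2D, and 276 and 305 in 3D. In batches 2 and 3 D2A1 was the higher line in 2D, at 173 and 221 TPM against 88.9 and 76.7. The same held in 3D, at 110 and 102 TPM against 56.7 and 59.2. As a share of all collagen TPM, type IV chains made up 23.1% to 38.9% in D2A1 2D and 24.5% to 39.1% in D2A1 3D, but 1.12% to 7.64% in D2.OR 2D and 1.05% to 4.63% in D2.OR 3D. If Col7a1, Col15a1 and Col18a1, which are also found at basement membranes, were counted in this class, its sum became 308 TPM in D2A1 2D and 894 TPM in D2.OR 2D, since Col18a1 alone was then 77.1% of the D2.OR 2D sum.

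**Figure D1:**
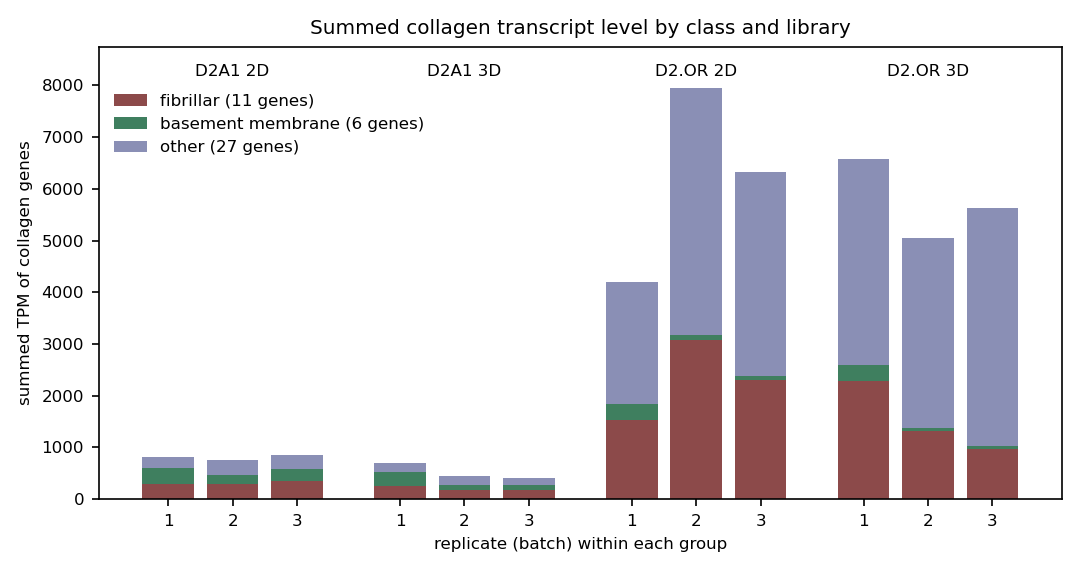
Stacked bars of summed TPM of the fibrillar, basement membrane and other collagens in each of the 12 libraries, by group and batch. The 6 D2.OR bars run from 4191 to 7947 TPM and the 6 D2A1 bars from 414 to 850.4 TPM, with most of the gap in the fibrillar and other classes.

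A few genes carried each sum. Col5a1, a chain of the minor fibrillar type V, was 92.1% of the fibrillar TPM in D2A1 2D and 96.7% in D2A1 3D. In D2.OR the leading fibrillar gene was Col3a1, the single chain of type III, with 67.6% in 2D and 62.3% in 3D. Among the other collagens, Col6a5 led in D2A1 2D with 26.6% and Col6a1 in D2.OR 2D with 41.3%. Ranked by mean TPM among all 52550 genes, Col6a1 stood at place 95 in D2.OR 2D and 59 in D2.OR 3D, and Col3a1 at place 89 and 150. In D2A1 2D the same genes stood at place 6498 and 7355.

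Which collagens differed between the lines was asked separately in 2D and in 3D, with the edgeR quasi-likelihood test over all genes that passed a filter on low counts. Of the 44 collagens, 38 passed this filter and were tested. In 2D, 30 collagens passed (49.8% of all genes tested passed). Of these, 21 were higher in D2.OR (25.4% of all genes tested were higher) and 9 were lower (24.4% of all genes tested were lower), with an adjusted p under 0.05 as the threshold throughout. By class, 10 of 11 fibrillar genes were higher and 0 lower, 0 of 6 basement membrane genes were higher and 4 lower, and 11 of 21 other genes were higher and 5 lower. The median log2 fold change of D2.OR over D2A1 was 3.19 for the fibrillar genes, 3.04 with Col2a1 set at its lower bound, -3.68 for the basement membrane genes and 1.06 for the others, against -0.00338 over all genes tested. In 3D, 28 collagens passed (53.8% of all genes tested passed). Of these, 21 were higher in D2.OR (27.7% of all genes tested were higher) and 7 lower (26.1% of all genes tested were lower). By class, 10 of 11 fibrillar genes were higher and 0 lower, 1 of 6 basement membrane genes was higher and 3 lower, and 10 of 21 other genes were higher and 4 lower. The medians in 3D were 3.36, -2.60 and 0.77, against 0.000517 over all genes tested. The value of the basement membrane class depends on its border. With Col7a1, Col15a1 and Col18a1 added to it, its median was -0.88 in 2D, where 3 of 9 genes were higher and 4 lower, and it turned to 0.43 in 3D, where 2 of 9 were higher and 3 lower. The comparisons in 2D and in 3D rest on different libraries of the same batches. Across them 17 collagens were higher in D2.OR in both, 7 were lower in both, and 0 were higher in one and lower in the other. Of all genes tested, 20.3% were higher in both, 17.8% lower in both and 0.208% higher in one and lower in the other. A gene can pass the filter through 1 line alone and then has to differ, so these counts describe the tested genes and do not set collagens apart. With at least 10 counts asked of every library, 23 collagens remained and 19 of them passed the test in 2D and 19 in 3D, as did 50.8% and 54.9% of all genes then tested. Nothing in the labels says that the batches were separate cultures, and the p-values measure the spread between these libraries.

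**Figure D2:**
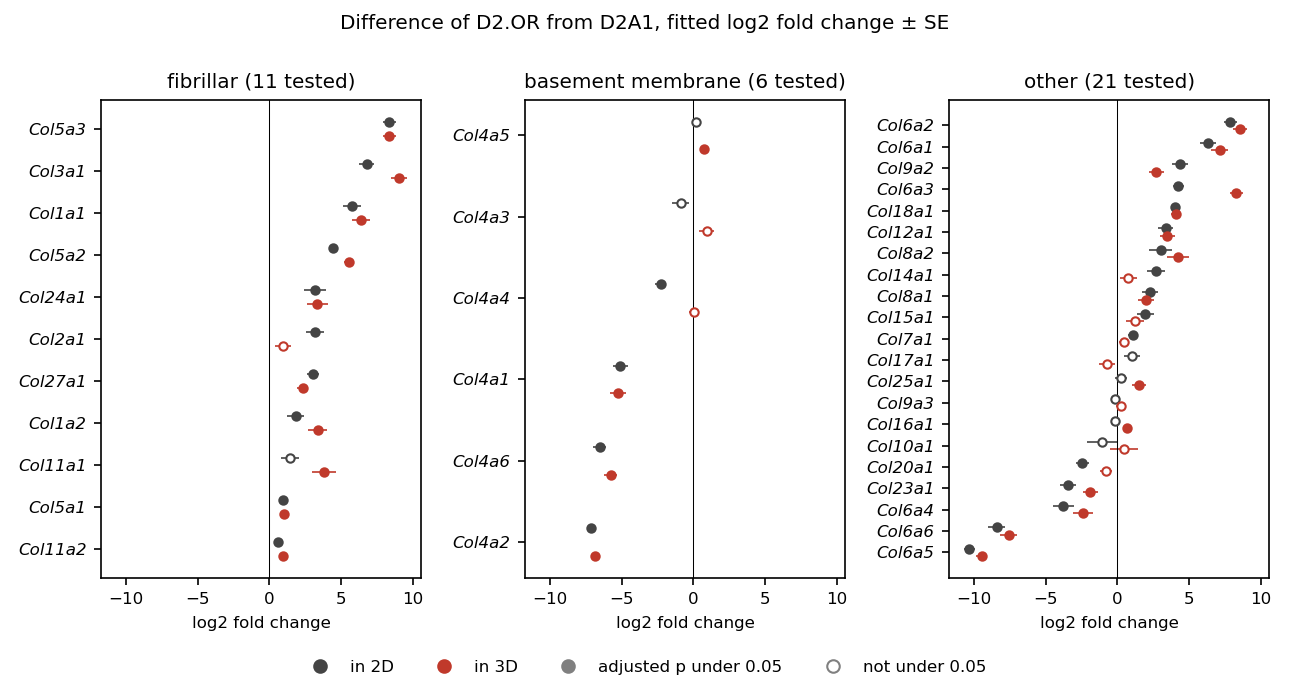
Fitted log2 fold change of D2.OR over D2A1 with its SE for the 38 tested collagens, by class, in 2D and in 3D, where filled points have an adjusted p under 0.05. Fibrillar points lie right of 0. Of the 6 type IV points, 5 lie left of 0 in 2D and 3 in 3D. The other class runs from Col6a2 (8.55 in 3D) to Col6a5 (-10.33 in 2D). The points of Col2a1, Col6a4, Col6a6 and Col9a2 rest on libraries at or under 3 counts and are no bounds.

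Among the fibrillar collagens the largest levels and some of the largest differences belonged to types III and V. Values are given in the order of batches 1, 2 and 3. Col3a1 was at 19.5, 25.4 and 9.12 TPM in D2A1 2D, 1.65, 2.29 and 0.76 in D2A1 3D, 979, 2217 and 1470.4 in D2.OR 2D and 1659, 715 and 468 in D2.OR 3D. The lines did not overlap in either culture, and D2.OR was 112-fold higher in 2D (log2 fold change 6.80 ± 0.51 (SE), adjusted p = 1.18e-05) and 524-fold higher in 3D (log2 fold change 9.03 ± 0.57 (SE), adjusted p = 3.75e-06). Col5a1, by contrast, was abundant in both lines. It was at 257, 262 and 339 TPM in D2A1 2D, 244, 163 and 165 in D2A1 3D, 355, 589 and 565 in D2.OR 2D and 410.2, 409 and 330.5 in D2.OR 3D. The difference was small for a gene of this list, 1.97-fold higher in D2.OR in 2D (log2 fold change 0.98 ± 0.22 (SE), adjusted p = 0.00575) and 2.05-fold higher in 3D (log2 fold change 1.04 ± 0.22 (SE), adjusted p = 0.00378), and it no longer passed without batch 2 in either culture. The chains that join the product of Col5a1 in type V molecules behaved otherwise. Col5a3 was at 0.82, 0.67 and 0.29 TPM in D2A1 2D and 0.38, 0.48 and 0.38 in D2A1 3D, but at 115, 203 and 215 in D2.OR 2D and 136, 124.4 and 149 in D2.OR 3D. This was 334-fold higher in D2.OR in 2D (log2 fold change 8.38 ± 0.45 (SE), adjusted p = 1.40e-06), and in 3D it had a log2 fold change of 8.37 ± 0.44 (SE) and an adjusted p = 1.48e-06. Col5a2 was low everywhere, at 0.14, 0.14 and 0.06 TPM in D2A1 2D, 0.03, 0.05 and 0.04 in D2A1 3D, 2.58, 2.55 and 2.02 in D2.OR 2D and 2.59, 1.64 and 1.71 in D2.OR 3D. It still separated the lines, with a log2 fold change of 4.46 ± 0.31 (SE) and an adjusted p = 7.03e-06 in 2D and a log2 fold change of 5.57 ± 0.34 (SE) and an adjusted p = 3.02e-06 in 3D.

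The chains of type I, the main collagen of skin and bone, were minor in both lines. Col1a1 was at 3.33, 0.76 and 0.39 TPM in D2A1 2D, 0.99, 0.37 and 0.26 in D2A1 3D, 54.5, 57.1 and 39.2 in D2.OR 2D and 55.2, 43.9 and 7.65 in D2.OR 3D. Every D2.OR library was above every D2A1 library (log2 fold change 5.75 ± 0.62 (SE), adjusted p = 9.00e-05 in 2D, log2 fold change 6.39 ± 0.65 (SE), adjusted p = 5.79e-05 in 3D), although batch 3 of D2.OR 3D was well below the other D2.OR libraries. Its partner Col1a2 was at 2.59, 0.27 and 0.2 TPM in D2A1 2D, 0.89, 0.16 and 0.13 in D2A1 3D, 3.8, 1.31 and 1.37 in D2.OR 2D and 4.51, 4.92 and 0.72 in D2.OR 3D. The lines overlapped for this gene, batch 1 of D2A1 2D being above 2 libraries of D2.OR 2D. Its difference passed in 2D (log2 fold change 1.85 ± 0.60 (SE), adjusted p = 0.029) and in 3D (log2 fold change 3.36 ± 0.64 (SE), adjusted p = 0.00201), but not in 2D without the batch term, without batch 3, without batch 2 or 3 of D2A1 2D, or without batch 3 of D2.OR 2D. The fibrillar genes not given by library were Col27a1, Col11a2, Col11a1, Col24a1 and Col2a1, the last being the chain of cartilage type II. Their group means ran from 0.01 TPM (Col2a1 and Col24a1) to 6.19 TPM (Col27a1 in D2.OR 3D), and the highest difference among them that was not a bound was that of Col11a1 in 3D (3.82 ± 0.81, adjusted p = 0.00359), which was 2.24 without batch 1 of D2.OR 3D. Col11a1 and Col11a2 were chosen after their values were seen. Col11a2 passed narrowly in 2D (0.58 ± 0.21, adjusted p = 0.0471) and lost that call without batch 2 or batch 3 and without any of 8 single libraries, among them all 3 of D2.OR 2D. In TPM the lines overlapped in 2D, with 2.93, 1.25 and 2.3 in D2A1 and 2.43, 5.91 and 2.16 in D2.OR, so that D2.OR was the lower line in batches 1 and 3.

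The type IV genes are given by gene pair, and only Col4a1 and Col4a2 were both called in the same direction. Col4a1 and Col4a2 encode the common network of nearly all basement membranes and start head to head on chromosome 8, with 22 bases of overlap between their annotated spans. Col4a1 was at 56.1, 40.5 and 44.2 TPM in D2A1 2D and 50.3, 30.9 and 30.7 in D2A1 3D, against 0.64, 2.23 and 2.56 in D2.OR 2D and 0.99, 1.26 and 1.05 in D2.OR 3D. Col4a2 was at 69.4, 61.5 and 62.4 TPM in D2A1 2D and 64.6, 40.4 and 39.1 in D2A1 3D, against 0.33, 0.43 and 0.46 in D2.OR 2D and 0.64, 0.41 and 0.44 in D2.OR 3D. Neither gene had a D2.OR library near the D2A1 range. Col4a1 was 34.2-fold lower in D2.OR in 2D (log2 fold change -5.10 ± 0.55 (SE), adjusted p = 9.39e-05) and 37.7-fold lower in 3D (log2 fold change -5.23 ± 0.55 (SE), adjusted p = 7.44e-05). Col4a2 was 143-fold lower in 2D (log2 fold change -7.16 ± 0.25 (SE), adjusted p = 1.31e-07) and 114-fold lower in 3D (log2 fold change -6.84 ± 0.25 (SE), adjusted p = 1.57e-07), the smallest p of any basement membrane gene in both cultures.

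Col4a5 and Col4a6 start head to head on the X chromosome, 1308 bases apart, and encode chains of the networks in kidney, skin and smooth muscle. Here the neighbours parted. Col4a6 was at 2.7, 0.57 and 1.29 TPM in D2A1 2D and 2.19, 0.36 and 0.29 in D2A1 3D, and at no more than 0.03 TPM in any D2.OR library. It passed the test as lower in D2.OR in 2D (log2 fold change -6.55 ± 0.48 (SE), adjusted p = 9.42e-06) and in 3D (log2 fold change -5.77 ± 0.47 (SE), adjusted p = 1.60e-05). Col4a5 was at 189.9, 70.3 and 113 TPM in D2A1 2D, 159, 38.4 and 31.4 in D2A1 3D, 319, 86.2 and 73.7 in D2.OR 2D and 303, 54.9 and 57.6 in D2.OR 3D. In every group the batch 1 library was the highest, by 1.68 to 5.52 times over the other libraries, and the lines overlapped in both cultures. Col4a5 did not pass in 2D (log2 fold change 0.20 ± 0.27 (SE), adjusted p = 0.562), where the value turned to -0.06 without batch 1, and where it passed as higher in D2.OR without batch 3 of D2A1 2D (0.62, adjusted p = 0.0229). It passed narrowly as higher in D2.OR in 3D (log2 fold change 0.74 ± 0.26 (SE), adjusted p = 0.0408). That call was lost without batch 2, without batch 3, and without 1 library for 10 of the 12 libraries, the exceptions being batches 1 and 3 of D2A1 2D. It was also lost without the batch term and with library totals as the only scaling. Col4a5 had the highest mean of the type IV genes in all 4 groups. It made up 52.4% of the type IV TPM in D2A1 2D, 46.9% in D2A1 3D and 98.6% in D2.OR 2D. In D2A1 3D that place rested on batch 1, and Col4a2 was the higher gene in batches 2 and 3, at 40.44 and 39.15 TPM.

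Col4a3 and Col4a4, a pair on chromosome 1 that starts 71 bases apart and is best known from the filtering membrane of the kidney, were near absent. Their highest library was 0.15 TPM for Col4a3 and 0.14 TPM for Col4a4. Col4a4 was at 0.14, 0.11 and 0.1 TPM in D2A1 2D, 0.06, 0.04 and 0.05 in D2A1 3D, 0.02, 0.03 and 0.02 in D2.OR 2D and 0.07, 0.05 and 0.03 in D2.OR 3D. It passed as lower in D2.OR in 2D only (log2 fold change -2.27 ± 0.38 (SE), adjusted p = 0.00107), at a level of at most 40 counts per library, and not on the log2(TPM + 1) scale. Col4a3 passed in neither culture (-0.88 ± 0.58 and 0.92 ± 0.51).

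**Figure D3:**
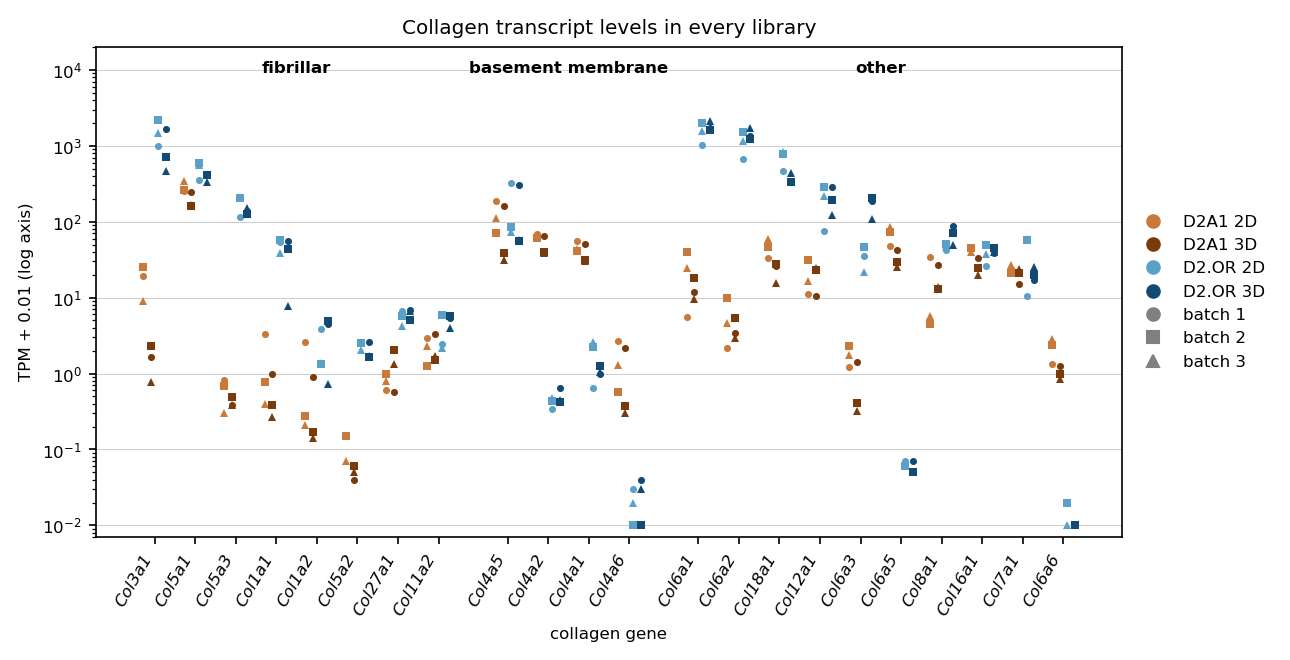
Level of 22 collagen genes in each of the 12 libraries, in TPM with 0.01 added on a log axis, by class, with colors for groups and shapes for batches. D2.OR points sit above D2A1 points for Col3a1, Col5a3 and Col6a1 to Col6a3, and below them for Col4a1, Col4a2, Col4a6, Col6a5 and Col6a6, whereas the batch 1 circles of Col4a5 lie on top in all 4 groups.

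Type VI collagen showed opposite differences in its 2 sets of chains. The classical molecule is built from the products of Col6a1, Col6a2 and Col6a3, while Col6a4, Col6a5 and Col6a6 encode chains that resemble the third one and can take its place. Col6a1 was at 5.6, 39.9 and 24.9 TPM in D2A1 2D, 11.8, 18.3 and 9.44 in D2A1 3D, 1016, 1999 and 1555 in D2.OR 2D and 1703, 1599 and 2089 in D2.OR 3D. Col6a2 was at 2.16, 9.98 and 4.69 TPM in D2A1 2D, 3.43, 5.32 and 2.96 in D2A1 3D, 678, 1511 and 1172 in D2.OR 2D and 1328, 1213 and 1726 in D2.OR 3D. All D2.OR libraries were above all D2A1 libraries for both genes. Col6a1 was 80.3-fold higher in D2.OR in 2D (log2 fold change 6.33 ± 0.55 (SE), adjusted p = 2.62e-05) and 141-fold higher in 3D (log2 fold change 7.14 ± 0.57 (SE), adjusted p = 1.45e-05). Col6a2 was 235-fold higher in 2D (log2 fold change 7.88 ± 0.46 (SE), adjusted p = 2.52e-06) and 375-fold higher in 3D (log2 fold change 8.55 ± 0.47 (SE), adjusted p = 1.78e-06). Col6a3 was lower than these in every library. It was at 1.21, 2.27 and 1.77 TPM in D2A1 2D, 1.42, 0.4 and 0.31 in D2A1 3D, 35.4, 46.6 and 21.8 in D2.OR 2D and 185, 208 and 109.5 in D2.OR 3D. D2.OR was 19.2-fold higher in 2D (log2 fold change 4.26 ± 0.38 (SE), adjusted p = 3.24e-05) and 317-fold higher in 3D (log2 fold change 8.31 ± 0.46 (SE), adjusted p = 1.79e-06).

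The alternative type VI chains went the other way. Col6a5 was at 47.9, 73 and 85.2 TPM in D2A1 2D and 42.5, 29.6 and 25.5 in D2A1 3D, and at 0.04 to 0.06 TPM over the 6 D2.OR libraries, so that the lines were far apart. With a log2 fold change of -10.33 ± 0.40 (SE) and an adjusted p = 2.37e-07 in 2D and a log2 fold change of -9.48 ± 0.39 (SE) and an adjusted p = 3.28e-07 in 3D, it had the smallest p of the 21 tested other collagens in both cultures. Col6a6, chosen after its values were seen because it neighbours Col6a5, was at 1.33, 2.36 and 2.87 TPM in D2A1 2D and 1.25, 0.98 and 0.83 in D2A1 3D, while no D2.OR library held more than 1 count. Set against a floor of 3 counts per library, its level in D2.OR was at least 89.4-fold lower in 2D and at least 50.3-fold lower in 3D. Col6a4, chosen in the same way, reached 0.02 to 0.65 TPM in D2A1 and 0 to 0.05 in D2.OR. In 2D its level in D2.OR was at least 9.81-fold lower, or 3.47-fold without batch 1 of D2A1 2D, and its call in 3D (-2.39 ± 0.71, adjusted p = 0.0181) was lost without batch 2, without batch 1 of D2A1 3D or D2.OR 3D, and without the batch term.

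Of the other families, the multiplexin Col18a1, whose protein sits in basement membranes and releases endostatin, was at 33.2, 46.9 and 59.4 TPM in D2A1 2D, 26.1, 27.8 and 15.7 in D2A1 3D, 465, 774 and 828 in D2.OR 2D and 343, 333 and 442 in D2.OR 3D. It was 16.4-fold higher in D2.OR in 2D (log2 fold change 4.04 ± 0.31 (SE), adjusted p = 1.34e-05) and 16.9-fold higher in 3D (log2 fold change 4.08 ± 0.31 (SE), adjusted p = 1.20e-05), with no overlap. Col12a1, which binds along fibrils, was at 11, 31.2 and 16.7 TPM in D2A1 2D, 10.3, 22.9 and 24.9 in D2A1 3D, 74.5, 283 and 215 in D2.OR 2D and 288, 191 and 123 in D2.OR 3D. The D2.OR libraries spread widely, yet the lines stayed apart (log2 fold change 3.36 ± 0.50 (SE), adjusted p = 5.71e-04 in 2D, log2 fold change 3.49 ± 0.51 (SE), adjusted p = 4.79e-04 in 3D). Col16a1, also a fibril-associated chain, was at 45.1, 45.2 and 39.8 TPM in D2A1 2D, 33.2, 24.8 and 20.1 in D2A1 3D, 26, 48.8 and 37.1 in D2.OR 2D and 39.1, 44.4 and 39.99 in D2.OR 3D. In 2D the lines overlapped and the difference did not pass (log2 fold change -0.18 ± 0.20 (SE), adjusted p = 0.499). In 3D D2.OR was 1.57-fold higher (log2 fold change 0.65 ± 0.21 (SE), adjusted p = 0.0246), a call lost without batch 2 or 3 and without batch 2 or 3 of either 3D group.

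The short chain collagens Col8a1 and Col8a2 encode partners in a sheet-like network of vessel and eye membranes. Col8a1 was at 34.4, 4.42 and 5.64 TPM in D2A1 2D, 26.5, 12.9 and 13.8 in D2A1 3D, 41.9, 50.9 and 47.6 in D2.OR 2D and 86.7, 71.2 and 49.1 in D2.OR 3D. The batch 1 libraries of D2A1 were the highest of their groups, and no D2A1 library reached the D2.OR range of the same culture. D2.OR was higher in 2D (log2 fold change 2.28 ± 0.57 (SE), adjusted p = 0.00896) and in 3D (log2 fold change 2.01 ± 0.53 (SE), adjusted p = 0.0113), and neither call held without batch 2 or without batch 3. Col8a2 was at 0.33, 0.01 and 0.01 TPM in D2A1 2D, 0.16, 0.06 and 0.01 in D2A1 3D, 0.51, 0.49 and 0.32 in D2.OR 2D and 3.92, 0.83 and 0.31 in D2.OR 3D. The lines overlapped in 2D and did not in 3D. Col8a2 passed as higher in D2.OR in 2D (log2 fold change 3.02 ± 0.79 (SE), adjusted p = 0.0113), a call lost without batch 2, without batch 3 or without the batch term, and in 3D (log2 fold change 4.23 ± 0.77 (SE), adjusted p = 0.00162). The 2D value was 5.33 without batch 1 and 4.91 without batch 1 of D2A1 2D, and that of Col8a1 was 3.42 without batch 1. The last collagens with values here, Col7a1 and Col23a1, were chosen after their values were seen. Col7a1, the anchoring fibril chain, had group means from 19.9 to 42.3 TPM and was called higher in D2.OR in 2D only (1.06 ± 0.35, adjusted p = 0.032). Within batches its 2D difference ran the other way in batch 1, at 10.5 TPM in D2.OR against 24 in D2A1, and the call was lost without batch 2 or 3, without batch 2 or 3 of either 2D group, and without the batch term. Col23a1, a transmembrane collagen, was lower in D2.OR in 2D (-3.42 ± 0.56, adjusted p = 9.86e-04) and in 3D (-1.90 ± 0.52, adjusted p = 0.0131), the latter not without batch 2 and at -1.26 without batch 1.

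The ratio of chains that can meet in one molecule was taken within each library, on the TPM scale, as a description. Col1a1 per Col1a2 was 1.11 to 2.81 over the 6 D2A1 libraries and 8.92 to 43.6 over the 6 D2.OR libraries. Col4a1 per Col4a2 was 0.66 to 0.808 in D2A1 and 1.55 to 5.57 in D2.OR, and Col6a1 per Col6a2 was 2.59 to 5.3 in D2A1 and 1.21 to 1.5 in D2.OR. For these pairs the ranges of the lines did not overlap, so the chains of a pair did not stand in one fixed proportion across lines. The type V chains were further from balance. Col5a1 exceeded Col5a2 by 1833 to 8121 times in D2A1 and 138 to 279.8 times in D2.OR. The D2A1 values are coarse, since Col5a2 was at 0.03 to 0.14 TPM there, with at most 31 counts in a 2D library and 13 in a 3D library. Col5a1 exceeded Col5a3 by 313 to 1170.1 times in D2A1 and by 2.21 to 3.29 times in D2.OR. Col6a1 per Col6a3 set the cultures of D2.OR apart, at 28.7 to 71.4 in 2D and 7.68 to 19.1 in 3D, and overlapped between the lines. Transcript ratios say nothing of the protein that was assembled.

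**Figure D4:**
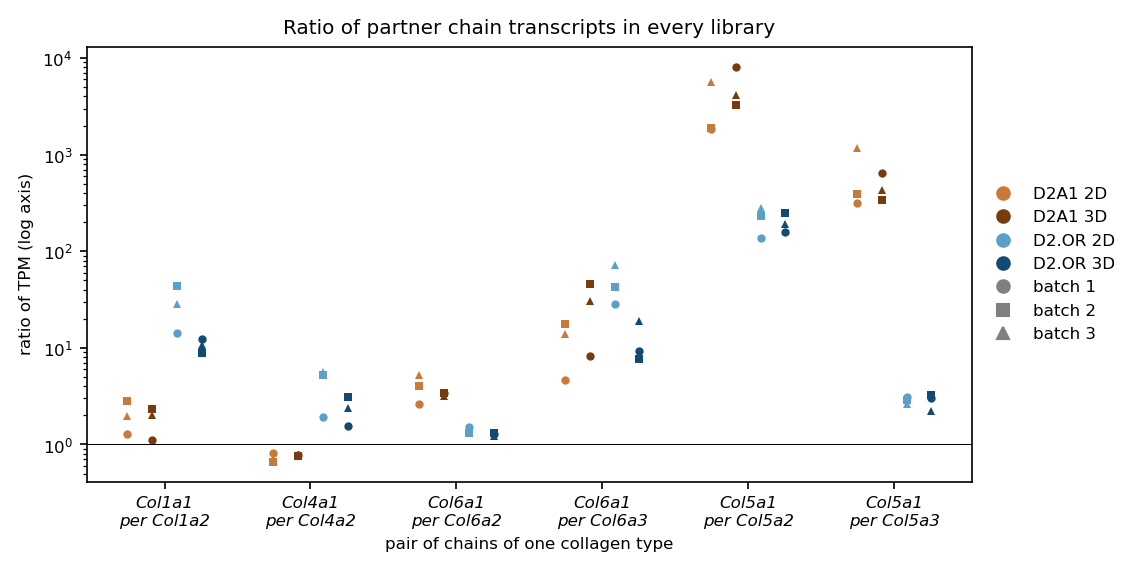
Ratio of the TPM of 2 collagen chains within each library for 6 chain pairs, on a log axis, by group and batch. The lines occupy separate ranges for Col1a1 per Col1a2 (1.11 to 2.81 in D2A1, 8.92 to 43.6 in D2.OR) and for Col4a1 per Col4a2, while D2.OR 3D lies below D2.OR 2D for Col6a1 per Col6a3.

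The differences of neighbouring collagen genes were set side by side. There were 10 pairs of neighbouring collagens within 500 kb of each other, 9 of them with both genes tested, and in 6 both genes passed in 2D with the same sign. These 6 pairs share genes and come from 4 loci. Of all single genes tested 49.8% passed in 2D, and the share among neighbouring pairs of other genes was not computed. Col3a1 and Col5a2, which end toward each other on chromosome 1 at a distance of 24614 bases, were both higher in D2.OR. Col6a2, Col6a1 and Col18a1 follow each other on chromosome 10, 85161 and 326009 bases apart, and were all higher. Col6a6, Col6a5 and Col6a4 follow each other on chromosome 9, 27917 and 28810 bases apart, and were all lower. Col4a1 and Col4a2 were both lower. The pairs of tested genes that did not share a called direction in 2D were Col4a6 with Col4a5, Col4a4 with Col4a3, and Col9a3 with Col20a1. The strand used in counting is not given in the sources used here. Of the collagens, 28 overlap another annotated gene and 18 overlap one on the opposite strand, so reads of Col4a1 and Col4a2 in their shared 22 bases, and much of Col10a1, which overlaps the more abundant Nt5dc1, could not be assigned with certainty.

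Whether collagen transcripts differed between 3D and 2D culture was asked within each line, and few genes passed. In D2A1, 2 collagens passed (3.48% of all genes tested passed). Of these, 0 rose from 2D to 3D (1.37% of all genes tested rose) and 2 fell (2.12% of all genes tested fell). The estimates were below 0 for 28 of the 38 tested genes, with a median log2 fold change of -0.54 against 0.00368 over all genes tested, and 15 had an unadjusted p under 0.05, as had 31.4% of all genes tested. All 6 type IV genes had estimates below 0 and 0 of them passed. The genes that fell were Col3a1 and Col6a3. Col3a1 went from 19.5, 25.4 and 9.12 TPM in 2D to 1.65, 2.29 and 0.76 TPM in 3D, without overlap, and was 8.74-fold lower (log2 fold change -3.13 ± 0.44 (SE), adjusted p = 0.0207). Col6a3 went from 1.21, 2.27 and 1.77 TPM to 1.42, 0.4 and 0.31 TPM, with overlap, and was 3.53-fold lower in the fit (log2 fold change -1.82 ± 0.37 (SE), adjusted p = 0.0438). Batch 1 ran against that direction in TPM for Col6a3, and its call was lost in 16 of 24 alternatives, among them both limma scales, only the libraries compared, and leaving out any single D2.OR library, none of which enters the difference itself. The calls depend on the libraries. Without batch 1 the test called 18 collagens, 2 of them higher in 3D, and 36.3% of all genes tested. It called 11 collagens and 30.3% of all genes without batch 1 of D2A1 2D alone, and 8 collagens and 12.8% of all genes without batch 1 of D2A1 3D alone. Without batch 2, without batch 3, or without batch 2 or 3 of either D2A1 group it called 0 collagens and at most 0.121% of all genes, and without the batch term it called 0 and 0.309%. Without batch 2 or 3 of either D2.OR group it called 1, and 0.427% to 0.609% of all genes.

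In D2.OR, 1 collagen passed (1.62% of all genes tested passed), and it rose in 3D (0.838% of all genes tested rose) and 0 fell (0.785% of all genes tested fell), with 11 at an unadjusted p under 0.05, as were 17.6% of all genes tested. The gene was Col6a3 again, now in the other direction. It went from 35.4, 46.6 and 21.8 TPM in 2D to 185, 208 and 109.5 TPM in 3D, so that every 3D library was above every 2D library, and it was 4.68-fold higher (log2 fold change 2.23 ± 0.35 (SE), adjusted p = 0.0229). The call was lost without batch 2, without batch 3, without the batch term, and without any D2.OR library but batch 1 of D2.OR 3D. Without batch 1 the test called 7 collagens and 8.38% of all genes, and it called 2 collagens without batch 3 of D2A1 3D (0.968% of all genes) or without batch 1 of D2.OR 3D (1.61% of all genes). The other abundant genes of D2.OR did not pass, with Col6a1 at 0.30 ± 0.44, Col3a1 at -0.90 ± 0.41 and Col18a1 at -0.92 ± 0.28 on the log2 scale (SE). The median over the tested collagens was -0.09, or -0.13 with Col6a4 set at its bound, against 0.00199 over all genes tested.

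The difference between the lines in their response to 3D was tested as an interaction. By edgeR 0 of the 38 tested collagens passed (0.0238% of all genes tested passed, 0.0178% higher and 0.00594% lower), with 9 at an unadjusted p under 0.05, as were 17.8% of all genes tested. DESeq2 called 3 of the 38 collagens and 5.33% of all genes tested. The lowest p was that of Col6a3, whose change from 2D to 3D was higher in D2.OR than in D2A1 by 4.05 ± 0.51 on the log2 scale (adjusted p = 0.0539). It passed in 7 of the alternatives, among them DESeq2 and the fit without batch 1. For Col3a1 the value was 2.23 ± 0.59 (adjusted p = 0.146), so its response to 3D was not shown to differ between the lines.

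**Figure D5:**
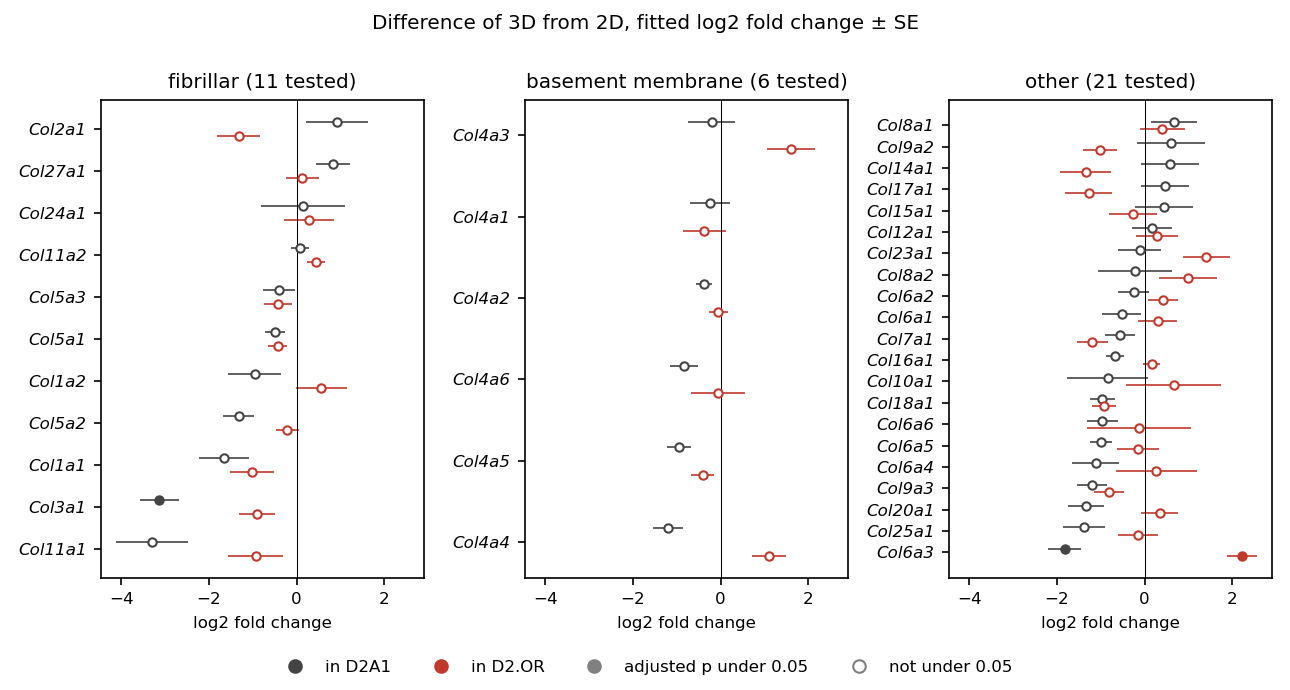
Fitted log2 fold change of 3D over 2D with its SE for the 38 tested collagens, by class, in D2A1 and in D2.OR, where filled points have an adjusted p under 0.05. The filled points are Col3a1 (-3.13) and Col6a3 (-1.82) in D2A1 and Col6a3 (2.23) in D2.OR.

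Many collagens were hardly transcribed in either line. A mean of at least 1 TPM was reached by 22 of the 44 genes in D2A1 2D, 17 in D2A1 3D, 19 in D2.OR 2D and 20 in D2.OR 3D. In contrast, 18 genes reached it in no group, and the highest library among them was 1.6 TPM, for the fibril-associated Col14a1. The 6 genes that were not tested, Col9a1, Col13a1, Col19a1, Col22a1, Col26a1 and Col28a1, stayed at or below 0.1 TPM in every library. Col9a2, a chain of cartilage type IX chosen after its values were seen, reached in D2.OR a level at least 5.28-fold higher in 2D and at least 3.15-fold higher in 3D against the floor of 3 counts per library, at levels of 0.1 to 0.31 TPM. For Col2a1 the D2.OR level in 2D was at least 5.43-fold higher, at 0.07 to 0.13 TPM. Among the tested genes, Col4a3, Col9a3, Col10a1 and Col17a1 passed in neither culture.

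The genes that modify, fold, trim and cross-link collagen chains were followed as companion lists. Their counts stand against the 49.8% of all genes tested that passed in 2D and the 53.8% that passed in 3D. Of the 15 modifying enzymes tested, 9 were higher and 3 lower in D2.OR in 2D, and 8 and 3 in 3D. Plod2, which hydroxylates lysines that later form cross-links, was lower in D2.OR, at 91.7 ± 5.66 TPM in D2A1 2D and 19.7 ± 6.0 in D2.OR 2D (log2 fold change -2.01 ± 0.15 (SE), adjusted p = 1.10e-05). P4ha3, a prolyl hydroxylase subunit, was higher, at 0.457 ± 0.31 and 13.9 ± 7.05 TPM (log2 fold change 5.36 ± 0.59 (SE), adjusted p = 9.98e-05), and it was the gene of this list that rose in D2A1 from 2D to 3D (log2 fold change 2.45 ± 0.55 (SE), adjusted p = 0.0488), a call lost in 15 of 23 alternatives, among them those without batch 2, without batch 3 and without any single library of D2A1 3D. Among the 7 folding and export genes 3 were higher and 2 lower in each culture. Fkbp10, a collagen chaperone of the endoplasmic reticulum, was at 0.11 ± 0.070 TPM in D2A1 2D and 12.3 ± 2.86 in D2.OR 2D (log2 fold change 7.55 ± 0.39 (SE), adjusted p = 1.17e-06), the largest difference of that list. The remaining genes named by rule in these lists differed less, with Plod3 at 0.94 ± 0.10 and Sec31a at 0.57 ± 0.13 in 2D, Klhl12 at -0.49 ± 0.10 in 2D, and Plod1 at 1.20 ± 0.14, P3h3 at 1.1 ± 0.14 and Mia3 at -0.41 ± 0.08 in 3D (log2 fold change of D2.OR over D2A1, SE). The calls of Klhl12 and Sec31a in 2D and of Mia3 in 3D were lost without batch 2, and those of Sec31a and Mia3 without batch 3 as well.

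All 6 tested procollagen processing genes differed in both cultures, 4 higher and 2 lower in D2.OR. Bmp1, which removes the carboxyl propeptides of fibrillar chains, was at 61.7 ± 1.72 TPM in D2A1 2D and 294 ± 87.9 in D2.OR 2D (log2 fold change 2.35 ± 0.20 (SE), adjusted p = 2.46e-05). In 2D the D2.OR level of Adamts2, which removes amino propeptides, was at least 51.5-fold higher and that of Pcolce2, an enhancer of Bmp1, at least 389-fold lower. Adamts14, which acts like Adamts2, fell in D2.OR from 2D to 3D (log2 fold change -1.22 ± 0.24 (SE), adjusted p = 0.0454), a call lost in 18 of 24 alternatives, among them each that left out a batch or a D2.OR library. Of 6 cross-linking genes 4 were higher and 1 lower in 2D, and 3 and 1 in 3D. Pxdn, the peroxidase that links type IV networks, was at 71.7 ± 10.5 TPM in D2A1 2D and 205 ± 29.5 in D2.OR 2D, higher in D2.OR (log2 fold change 1.64 ± 0.13 (SE), adjusted p = 1.40e-05) although Col4a1 and Col4a2 were lower there. Loxl2, a lysyl oxidase, was at 0.113 ± 0.0208 TPM in D2A1 2D, 2.56 ± 0.339 in D2.OR 2D and 0.38 ± 0.154 in D2.OR 3D. It was higher in D2.OR in 2D (log2 fold change 4.67 ± 0.48 (SE), adjusted p = 7.51e-05) and fell in D2.OR from 2D to 3D (log2 fold change -2.93 ± 0.43 (SE), adjusted p = 0.0197), the latter not without batch 2 or 3, without batch 2 or 3 of either D2.OR group, or without the batch term. Further lysyl oxidases differed in opposite directions, Loxl4 at -0.78 ± 0.11 in 2D and Loxl3 at 2.56 ± 0.42 in 3D, and the call of Loxl4 was lost without the batch term. Over the assembly lists together, receptors and proteoglycans included, 37 of 48 tested genes passed in 2D, 26 of them higher in D2.OR, and 36 in 3D, 26 of them higher. Of all genes tested 49.8% passed in 2D, with 25.4% higher, and 53.8% in 3D, with 27.7% higher. As with the collagens, a gene can pass the filter through 1 line alone, so these counts do not set the lists apart.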

How the data were processed

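RNA was sequenced from 12 libraries, 3 in each of 4 groups named by cell line and culture in the sample labels. Per the labels and the study's methods, the authors checked reads with FastQC 0.11.4, trimmed them with Trimmomatic 0.32, aligned them with STAR 2.5.3 to GRCm38 with GENCODE M15 genes and quantified them with RSEM 1.3.0. The deposited files hold expected counts, of which 10.7% to 11.8% per library were not whole numbers, and TPM as the authors computed it. The strand setting is not given in the sources used here. The study's methods put the 2D cells of the dormancy assays in the 3D medium. For the RNA they point to a section that gives another medium, DMEM, for 2D. It is therefore not clear whether the 2D cultures used for RNA received the 3D medium.

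Expected counts were rounded and tested with edgeR 4.0.16 in R 4.3.3 by the quasi-likelihood test, after TMM scaling and edgeR's default filter on low counts, which kept 16823 of 52550 genes. All 12 libraries entered 1 fit with a term for each group and a block for the replicate number, which the labels give as the batch. Each batch also had a lane of its own, 8 for batch 1, 6 for batch 2 and 7 for batch 3, so batch and lane cannot be told apart. Adjustment of p over all genes tested followed Benjamini and Hochberg, with a threshold of 0.05, and SEs are the fold change over the root of the F statistic. The numbers pair the libraries as batches: deviations from group means correlated at 0.0758 to 0.511 over the 18 pairs with the same number, with a median of 0.267 against -0.195 for different numbers. The common biological coefficient of variation was 21.2%. Folds against groups at or below 3 counts in every library were set against a floor of 3 counts per library. Sums and ratios used TPM, and counting error alone is covered by depth.

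Named collagens were the 4 fibrillar, 4 basement membrane and 8 other genes with the highest group mean, in each comparison the 2 called genes of each class with the smallest p, and the partner chains of these. Of each companion list they were the 3 called genes with the smallest p. Some of the latter are given in the closing section, and genes outside it are said to have been chosen after their values were seen. The collagens, classes, companion lists and named genes were all chosen with earlier results of these data known. The alternatives were the fit without the block, DESeq2 1.42.0, limma 3.58.1 on log2(TPM + 1) and log2(TPM + 0.1), library totals as the only scaling, other filters on low counts, only the libraries compared, leaving out each library or batch, and other class borders. Bounds without single libraries and batch extremes in TPM were added after the data were seen. The fitting code was tested on simulated data. Promoter windows came from the RefSeq table for GRCm38.p6, matched by symbol.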

Additional observations from a re-analysis of the deposited data

Results flagged for a closer look

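For 4 collagens the 3 batches of D2A1 all moved one way from 2D to 3D, in CPM (counts scaled to library size), and the 3 batches of D2.OR all moved the other way. The share of all genes tested that did so was not computed, so this count does not set collagens apart. The difference in response, D2.OR minus D2A1 on the log2 scale, was 4.05 ± 0.51 for Col6a3 (SE, edgeR adjusted p = 0.0539). It was 2.30 ± 0.52 for Col4a4 (adjusted p = 0.11), 0.83 ± 0.29 for Col16a1 (adjusted p = 0.201) and -2.23 ± 0.87 for Col2a1 (adjusted p = 0.234). The interaction test passed for none of these 4 in the fit reported here. Among the alternatives it passed for Col6a3 in 7 of 23, for Col4a4 with DESeq2 and without batch 1 of D2A1 2D, for Col16a1 without batch 1 and without batch 1 of D2A1 3D, and for Col2a1 in 0 of 22. On the TPM scale batch 1 of D2A1 went from 1.21 to 1.42 for Col6a3, against its direction in CPM. For Col16a1 batch 2 of D2.OR likewise went from 48.8 to 44.4 TPM although its CPM did not fall, and for Col2a1 batch 2 of D2A1 was at 0.01 TPM in both cultures. Col2a1 and Col4a4 stayed at or below 0.14 TPM in every library. No D2A1 2D library held more than 2 counts of Col2a1, under the floor of 3 counts, so its value and its direction in D2A1 are not firm.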

How the results depend on the processing

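None of the called collagen differences changed sign under any alternative, and 18 of 30 calls in 2D and 17 of 28 in 3D passed in all that tested the gene, 5 in each culture not being tested with 10 counts asked of every library. In 2D the 30 calls became 19 with 10 counts asked of every library. Over the alternatives the log2 fold change from 2D to 3D ran from 2.14 to 2.31 for Col6a3 in D2.OR. In D2A1 it ran from -3.44 to -2.83 for Col3a1 and from -2.65 to -0.724 for Col6a3. The calls between cultures were few and unstable. In D2A1 the count of 2 became 0 without the replicate block, 13 with DESeq2, 6 with no filter on low counts, 1 with only the libraries compared and 0 to 18 when libraries or batches were left out. In D2.OR the count of 1 became 0 without the replicate block, 3 with DESeq2 and 0 to 7 with libraries left out. For the interaction the count of 0 became 3 with DESeq2, 1 with limma on log2(TPM + 1), 1 with no filter and 0 to 8 with libraries left out, 1 being the lowest of those that moved. For the assembly genes, 37 calls in 2D became 22 without batch 2 (24.9% of all genes, against 49.8%), the lowest when libraries were left out. In D2A1 their count of 2 became 0 without the replicate block, 11 with DESeq2, 5 and 7 with limma on log2(TPM + 1) and log2(TPM + 0.1), 7 with no filter, 0 with only the libraries compared and 0 to 19 with libraries left out. In D2.OR their count of 3 became 0 without the block, 7 with DESeq2, 5 with only the libraries compared and 0 to 14 with libraries left out (4 without batch 1 of D2A1 3D). Their interaction count of 0 became 6 with DESeq2, 1 with limma on log2(TPM + 1), 2 with no filter and 0 to 20 with libraries left out, 2 being the lowest of those that moved. The log2 ratio of class sums in 3D went from 2.95 to 2.37 for fibrillar and from 4.65 to 4.27 for other collagens with summed CPM. Widening the basement membrane class moved its sum from 162 to 894 TPM in D2.OR 2D and from 140.3 to 534 in D2.OR 3D, and narrowing the other class moved it from 258 to 188 TPM in D2A1 2D and from 163 to 119.8 in D2A1 3D. Col4a5 in 2D, which did not pass, turned from 0.20 to -0.062 without batch 1 and to -0.11 without batch 1 of D2A1 2D, and was 0.62 without batch 3 of D2A1 2D, where it passed (adjusted p = 0.0229). Of all genes, DESeq2 called 20.2% in D2A1, 6.86% in D2.OR and 5.33% for the interaction, and fits with libraries left out called 0% to 36.3%, 0% to 8.38% and 0% to 17.8%. In D2A1, 3.75% of all genes passed with no filter and 0.0981% with only the libraries compared. With limma 4.52% passed there on log2(TPM + 1) and 6.75% on log2(TPM + 0.1). In D2.OR, 5.16% passed with only the libraries compared. For the interaction 0.0773% passed with limma on log2(TPM + 1) and 0.322% with no filter. The cause of these shifts was not tested. Depth limits the genes near 3 counts, which is 0.0425 to 0.0607 CPM.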

Other observations

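Of 8 collagen receptors tested, 3 were higher and 2 lower in D2.OR in 2D (49.8% of all genes tested passed), and 5 higher and 1 lower in 3D (53.8% of all genes tested passed). Itga11, the integrin chain that binds fibrillar collagen, was at 0.0267 ± 0.0208 TPM in D2A1 2D and 3.99 ± 1.6 in D2.OR 2D (SD, n = 3; log2 fold change 7.52 ± 0.76 (SE), adjusted p = 6.25e-05), and at least 454-fold higher in D2.OR in 3D. Mrc2, an endocytic receptor that takes up collagen, was at 36.8 ± 10.9 TPM in D2A1 2D and 6.83 ± 3.5 in D2.OR 2D (log2 fold change -2.35 ± 0.30 (SE), adjusted p = 2.54e-04), and it fell in D2A1 from 2D to 3D (log2 fold change -1.81 ± 0.30 (SE), adjusted p = 0.0307), a call lost in 10 of 24 alternatives, among them those without batch 2 or 3, without batch 2 or 3 of either D2A1 group and without batch 2 of either D2.OR group. Ddr1, a collagen-activated kinase, was higher in D2.OR in 2D (log2 fold change 0.74 ± 0.12 (SE), adjusted p = 7.43e-04) and Itgb1, the shared integrin beta chain, in 3D (log2 fold change 0.82 ± 0.14 (SE), adjusted p = 0.00105). Itga1, an integrin chain for type IV collagen, rose in D2.OR from 2.75 ± 0.856 TPM in 2D to 11.3 ± 3.89 in 3D (log2 fold change 2.15 ± 0.27 (SE), adjusted p = 0.011), a call lost without batch 2 or 3, without batch 2 or 3 of D2.OR 2D, without batch 2 of D2.OR 3D and without the batch term.

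Among 6 tested proteoglycans that bind fibrils, 3 were higher and 1 lower in D2.OR in each culture, against the same shares of all genes tested. Bgn, which encodes biglycan, was the lower one, at 282 ± 34.7 TPM in D2A1 2D and 29.8 ± 14.9 in D2.OR 2D (log2 fold change -3.12 ± 0.63 (SE), adjusted p = 0.00306). In 3D it was at 140.1, 26.5 and 14.9 TPM in D2A1 and 20.6, 15.5 and 9.84 in D2.OR (log2 fold change -1.78 ± 0.61 (SE), adjusted p = 0.0345), a call lost in 10 of 24 alternatives, among them those without batch 2, without batch 3 and without any single D2.OR 3D library, and the value was -0.63 without batch 1 of D2A1 3D. Prelp was at 5.08, 3.11 and 4.43 TPM in D2A1 2D and 244, 21.7 and 8.22 in D2.OR 2D (log2 fold change 3.01 ± 0.75 (SE), adjusted p = 0.00926), a call lost without batch 2. Ogn was at 169, 33.4 and 20.4 TPM in D2A1 2D and 858, 445 and 240.4 in D2.OR 2D (log2 fold change 3.54 ± 1.11 (SE), adjusted p = 0.0253), a call lost without batch 2 or 3, without any single D2A1 2D library, without batch 2 or 3 of D2.OR 2D and without the batch term. Fmod, which encodes fibromodulin, was at 0.23, 0 and 0 TPM in D2A1 3D and 2.59, 1.26 and 0.45 in D2.OR 3D and passed as higher in D2.OR (log2 fold change 5.22 ± 0.76 (SE), adjusted p = 4.56e-04), a value that was 9.33 without batch 1 of D2A1 3D and 1.09 with limma on log2(TPM + 1).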
